A study of Homo sapiens with 4 samples.

Results

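A set of 8 genes that mark where a carcinoma cell stands between an epithelial and a mesenchymal state was followed in RNA recovered with EXOSC10 or with control IgG: the transcription factor genes ZEB1, ZEB2 and EHF, the vimentin gene VIM with its antisense gene VIM-AS1, the keratin genes KRT8 and KRT18, and the fibronectin gene FN1. They were taken by symbol, all entries of a symbol were added up, and all 8 were present among the 12838 symbols of the deposited table. The genes were chosen by symbol with measurements of these libraries already known, ZEB2 and EHF by their doxycycline ratio in the EXOSC10 libraries and VIM-AS1 by its EXOSC10 over IgG ratio. Every value below is therefore a description, and no test was run.

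EXOSC10 is a catalytic subunit of the RNA exosome, which degrades and trims RNA from its 3' end, mainly in the nucleus. The cells were LM2-4175, selected from MDA-MB-231 breast carcinoma cells for spread to the lung, and all of them carried a doxycycline-inducible CerS4 construct, whose product is a ceramide synthase. The 4 groups were doxycycline-treated cells with EXOSC10 antibody, untreated cells with EXOSC10 antibody, doxycycline-treated cells with IgG, and untreated cells with IgG. Doxycycline was given at 5 µg/mL for 48 h, and the study asked how EXOSC10-bound mRNA differs between treated and untreated cells. Each group was 1 library of 1 cell line, so no difference has a replicate check. Every group with doxycycline holds both the drug and the induced construct, and the effects of these cannot be told apart. No input library was analysed here, so the amount of an RNA in the cell and its recovery with an antibody cannot be told apart either. CERS4 was not analysed here, which leaves the induction unchecked.

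During an epithelial-mesenchymal transition a cell loses its junctions and keratin network and gains vimentin filaments, fibronectin and motility. ZEB1 and ZEB2 are zinc finger repressors that bind E-box motifs and silence epithelial genes such as the E-cadherin gene, while EHF is an ETS-family factor of epithelial cells. Breast carcinoma lines of the MDA-MB-231 type are known for a mesenchymal state with high vimentin and little E-cadherin.

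With EXOSC10 the estimated reads numbered 5511254 with doxycycline and 4233628 without it, and with IgG 7575179 and 3723313 in the same order. Ribosomal RNA genes took 56.3% of the reads with doxycycline and 75.8% without it in the EXOSC10 libraries, against 83.8% with doxycycline and 71.7% without it in the IgG libraries. Levels are given as scaled CPM, which is reads per 1000000 divided by a library factor from the trimmed mean of M values (TMM), and ratios are on the log2 scale after 0.2 scaled CPM is added to both levels. Square brackets hold an exact 95% interval on the estimated reads, which covers counting error only. For the change of EXOSC10 over IgG with doxycycline the 95% interval is a normal approximation from the reads of all 4 libraries, not an exact one. To count as higher or lower, a gene needed a ratio of at least 2-fold and at least 100 reads in the pair of libraries. Scaling by total reads instead shifted the library factors, on the log2 scale, by 1.02 for doxycycline over untreated with EXOSC10, by -0.66 for the same with IgG, by 2.47 for EXOSC10 over IgG in doxycycline-treated cells and by 0.79 in untreated cells. Scaling by non-ribosomal reads shifted them by 0.16, 0.14, 1.04 and 1.02 in the same order, and upper-quartile scaling by at most 0.20. A ratio moves by about its shift, and by less or more where few reads meet the added 0.2.

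The labelled cell type was checked against markers. All 11 markers of MDA-MB-231-type cells had an entry, VIM among them, and their summed level was 686 scaled CPM with doxycycline and 845 without it in the EXOSC10 libraries, against 1491 and 1881 scaled CPM in the same order in the IgG libraries. Of 8 luminal breast markers 7 had an entry, and ESR1, the estrogen receptor gene, had none. The luminal sum was 139 scaled CPM with doxycycline and 124 without it in the EXOSC10 libraries, against 91.4 and 117 in the same order in the IgG libraries. Most of that sum was KRT19, a keratin gene. It had 1163 of 1919 reads with doxycycline and 411 of 649 without it in the EXOSC10 libraries. In the IgG libraries it had 185 of 313 and 205 of 311 in the same order. The part of the luminal markers in the keratin and EHF values below was not tested. Markers of blood, fibroblasts and endothelium had an entry for 1 of 8, 3 of 7 and 1 of 5 genes, and their sums reached at most 1.72, 25.2 and 2.48 scaled CPM. CDH1, the E-cadherin gene, chosen for this check after its values were seen, had 35.0 reads in the doxycycline EXOSC10 library, 10.6 in the untreated EXOSC10 library and no read in either IgG library.

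Among the 8 genes, ZEB2 and EHF stood out in the EXOSC10 libraries with doxycycline, in opposite directions. ZEB2 RNA was 3.99-fold lower and EHF RNA 12.1-fold higher in doxycycline-treated than in untreated cells. Of the 7 genes with at least 100 reads in that pair, EHF was the 1 gene at least 2-fold higher and ZEB2 the 1 gene at least 2-fold lower, whereas 6.06% of 6584 genes were higher and 3.98% lower. Both genes had been picked for this contrast, so nothing is read from the counts. ZEB1, VIM, KRT8, KRT18 and FN1 stayed within 2-fold in that pair.

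**Figure D1:**
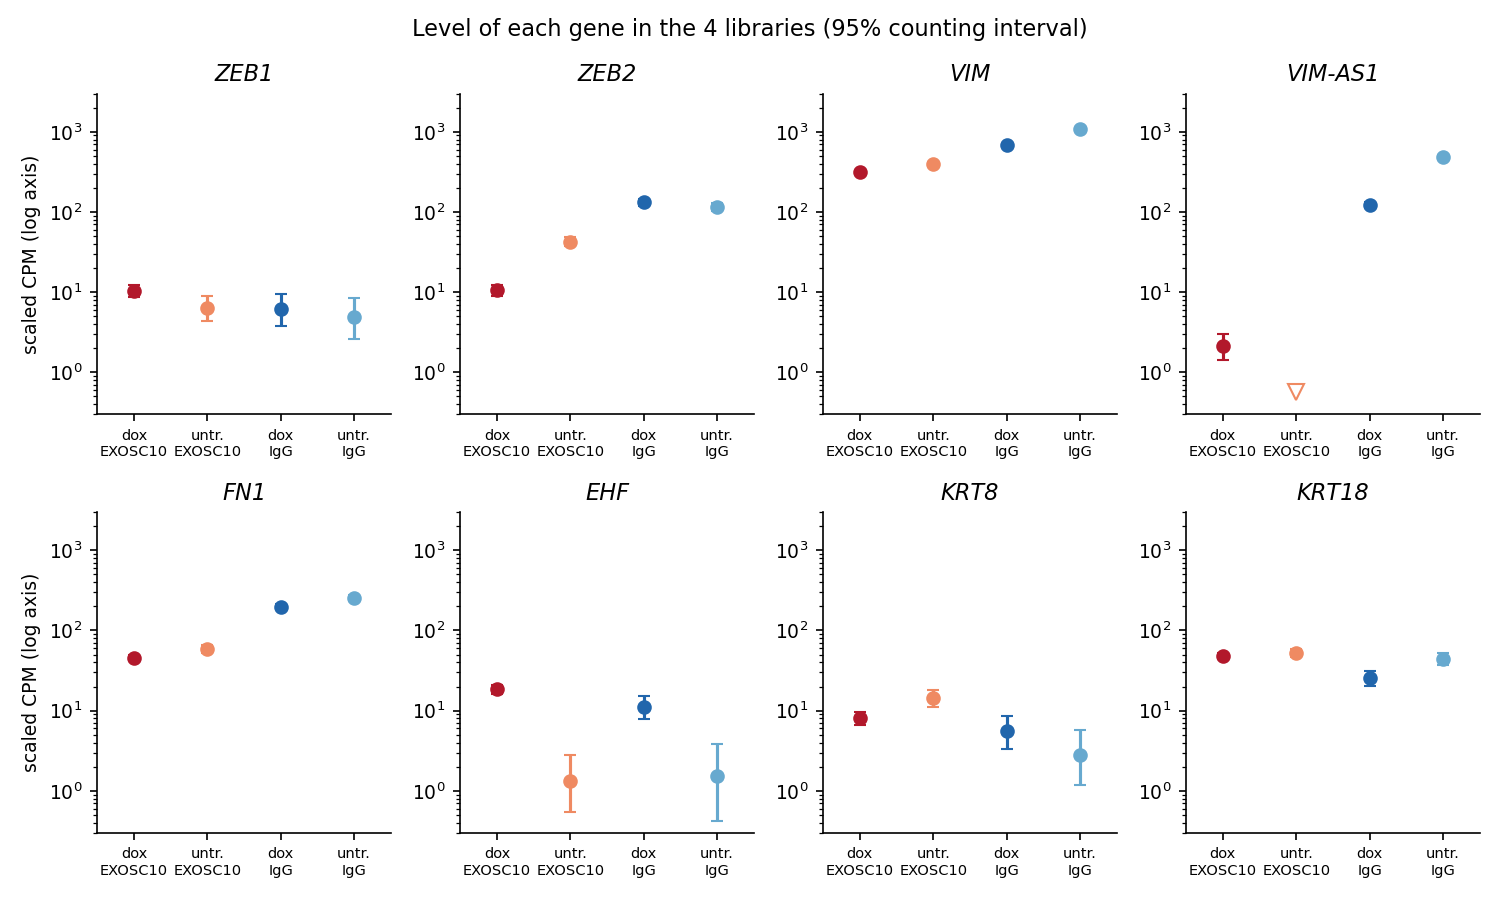
Level of the 8 genes in the 4 libraries, as scaled CPM on a log axis. Each point is 1 library, bars are 95% counting intervals, and the open triangle marks the level of 3 reads for VIM-AS1 in the untreated EXOSC10 library, which had no read. ZEB2 was lowest and EHF highest in the doxycycline EXOSC10 library.

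ZEB2 lies on the minus strand of chromosome 2 (gene ID 9839, GRCh38 chr2:144384081-144520119). It had 145 reads in the doxycycline EXOSC10 library and 223 in the untreated EXOSC10 library, which is 10.5 and 42.6 scaled CPM. The doxycycline IgG library had 132 scaled CPM from 452 reads, and the untreated IgG library 114 scaled CPM from 305 reads. Both EXOSC10 levels thus lay below both IgG levels, and the doxycycline EXOSC10 library was the lowest of the 4. The log2 ratio of doxycycline over untreated was -2.00 [-2.33, -1.71] with EXOSC10 and 0.20 [-0.01, 0.42] with IgG, and the IgG value became -0.46 under total-count scaling. The EXOSC10 ratio was lower in 0.106% of the genes tested. Under total-count scaling it was -0.996, just short of 2-fold. With IgG as the denominator, ZEB2 was 12.3-fold lower with EXOSC10 in doxycycline-treated cells and 2.68-fold lower in untreated cells, and the log2 change between these was -2.20 [-2.59, -1.85]. Under total-count scaling the log2 ratio of EXOSC10 over IgG was -1.17 in doxycycline-treated and -0.64 in untreated cells and the change was -0.54, so the untreated call and the call of the change were lost. Under non-ribosomal scaling it was -2.59 in doxycycline-treated and -0.41 in untreated cells.

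ZEB2 had 3 entries, numbered for each gene by their total reads, and its shift did not sit on a single one of them. Entry 1 had a log2 ratio of -1.91 and entry 2 of -1.89 for doxycycline over untreated with EXOSC10, against 0.13 and 0.28 with IgG. The remaining entry had no read in the doxycycline EXOSC10 library, 11.6 reads in the untreated EXOSC10 library and no read in the IgG libraries.

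ZEB1, the relative of ZEB2, lies on chromosome 10 (gene ID 6935, GRCh38 chr10:31318417-31529804). It had 142 reads in the doxycycline EXOSC10 library and 33.0 in the untreated EXOSC10 library, or 10.3 and 6.30 scaled CPM. The doxycycline IgG library gave 6.13 scaled CPM from 21.0 reads and the untreated IgG library 4.92 from 13.1 reads. The doxycycline EXOSC10 library was the highest, but its counting interval overlapped those of the untreated EXOSC10 and doxycycline IgG libraries. The other 3 also overlapped one another. The log2 ratio of doxycycline over untreated was 0.69 [0.15, 1.30] with EXOSC10 and 0.31 [-0.75, 1.43] with IgG, where the pair held fewer than 100 reads and the value turned negative under total-count scaling. Under total-count scaling the EXOSC10 value was 1.70, past 2-fold. EXOSC10 over IgG was 0.73 [0.08, 1.48] in doxycycline-treated and 0.34 [-0.60, 1.40] in untreated cells.

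A share of reads within 1 library needs no scaling. ZEB1 took 49.5% [43.6, 55.4] of the reads of ZEB1 and ZEB2 together in the doxycycline EXOSC10 library and 12.9% [9.04, 17.6] in the untreated EXOSC10 library. In the IgG libraries the share was 4.44% [2.77, 6.71] with doxycycline and 4.09% [2.19, 6.89] without it. The share thus differed between the EXOSC10 libraries by more than counting error and overlapped between the IgG libraries. ZEB2 had been picked for its doxycycline ratio with EXOSC10, so that difference follows in part from the choice and is a description only. It depends on the length of both transcripts, so it is not a ratio of molecules. Reading it across libraries assumes the same transcripts in each, which the differing ZEB1 entries given next leave unchecked.

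The reads of ZEB1 were spread over 10 entries, and the spread differed between libraries. In the doxycycline EXOSC10 library 9 entries had at least 1 read, and the leading entry held 23.4%. The untreated EXOSC10 library had reads on 4 entries with 62.6% on the leading one, the doxycycline IgG library on 4 with 64.1%, and the untreated IgG library on 2 with 77.3%. The leading entry was not the same: entry 1 led in the doxycycline EXOSC10 library with 33.2 reads, against 0.195 reads in the untreated EXOSC10 library, while entry 3 had 1.10 reads in the doxycycline EXOSC10 library and 20.6 reads in the untreated EXOSC10 library. Only the sum over entries was used for the ratios of ZEB1.

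**Figure D2:**
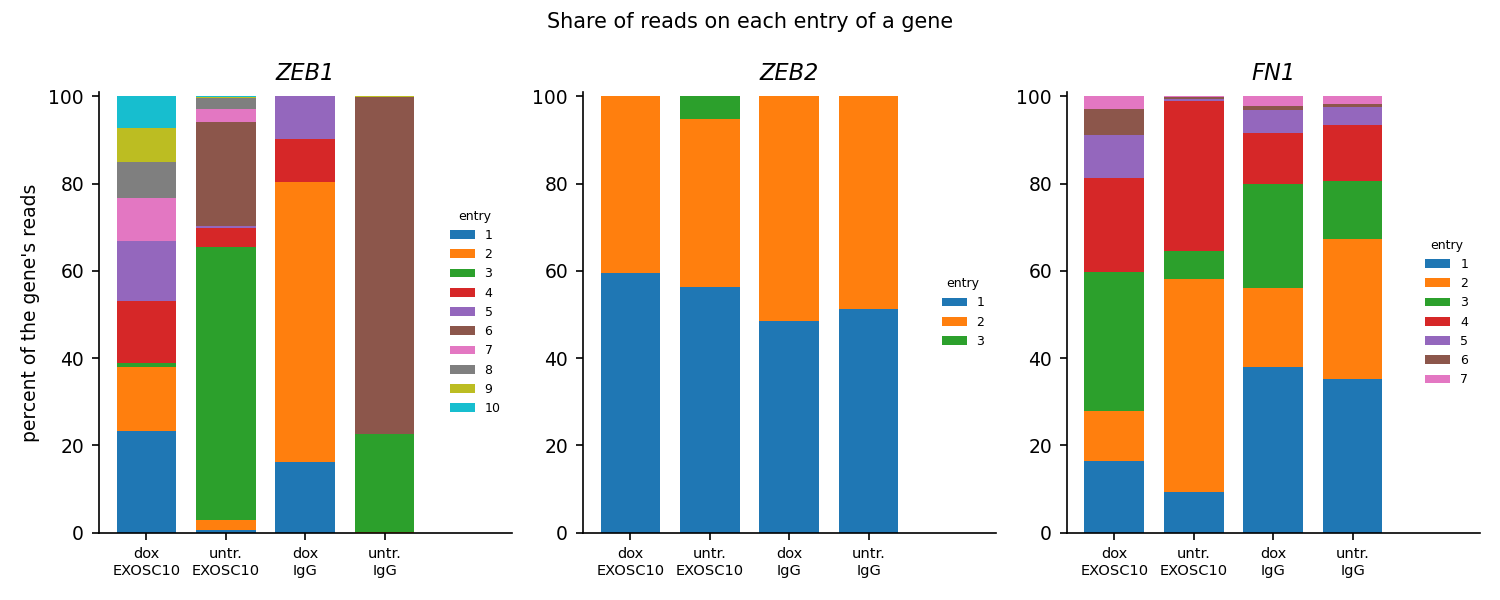
Percent of a gene's reads on each of its entries in the 4 libraries, for ZEB1, ZEB2 and FN1. Each stacked bar is 1 library and adds up to all reads of the gene, and colours number the entries. Entry 1 of ZEB2 held from 48.6% to 59.4% of its reads, and entry 2 led only in the doxycycline IgG library, at 51.4%. The leading entries of ZEB1 and FN1 also differed between libraries.

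ZEB proteins bind the E-box, whose letters searched here were CACCTG and its reverse complement CAGGTG. Promoter windows of RefSeq (GRCh38.p14), each from 250 bases before to 50 after a gene's start, were at hand for 7 of the 8 genes, in 15 windows. Of 35116 such windows 20.6% held the motif, and of the 15 only 2 did, both of ZEB1. ZEB1 had 7 of the 15 windows, most of them without the motif, and ZEB2 had 1, so the 2 genes were not searched equally. The ZEB1 window with 3 matches (chr10:31318966-31319265, plus strand) and the only ZEB2 window (chr2:144520070-144520369, minus strand, no match) are shown because the RNAs of these 2 related repressors had doxycycline ratios of opposite sign with EXOSC10. Capitals mark the motif, and a match is no evidence of binding.
ZEB1 promoter: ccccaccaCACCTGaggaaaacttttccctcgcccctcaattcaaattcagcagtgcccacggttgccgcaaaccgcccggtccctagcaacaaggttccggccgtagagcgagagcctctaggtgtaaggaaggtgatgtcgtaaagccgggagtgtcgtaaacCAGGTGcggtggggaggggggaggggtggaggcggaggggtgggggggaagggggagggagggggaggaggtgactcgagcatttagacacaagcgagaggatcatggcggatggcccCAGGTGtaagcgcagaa
ZEB2 promoter: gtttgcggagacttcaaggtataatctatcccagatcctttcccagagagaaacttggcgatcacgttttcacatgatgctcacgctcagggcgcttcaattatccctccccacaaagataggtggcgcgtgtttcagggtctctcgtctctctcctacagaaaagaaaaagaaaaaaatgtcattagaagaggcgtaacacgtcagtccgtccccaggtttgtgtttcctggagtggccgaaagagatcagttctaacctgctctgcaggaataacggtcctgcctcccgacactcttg

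EHF, an epithelial ETS factor, lies on chromosome 11 (gene ID 26298, GRCh38 chr11:34621093-34663288) and had a single entry. The doxycycline EXOSC10 library had 255 reads and the untreated EXOSC10 library 7.02, or 18.5 and 1.34 scaled CPM. The doxycycline IgG library had 38.2 reads and the untreated IgG library 4.05, or 11.1 and 1.52 scaled CPM. Both doxycycline libraries lay above both untreated libraries, whose intervals overlapped. The log2 ratio of doxycycline over untreated was 3.60 [2.72, 5.11] with EXOSC10. With IgG it was 2.72 [1.41, 4.81], or 6.59-fold, from fewer than 100 reads. Under total-count scaling both ratios kept their direction.

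Relative to IgG, EHF stayed within 2-fold in both treatments under TMM scaling, but reached 1.75 under non-ribosomal and 3.15 under total-count scaling in doxycycline-treated cells. EXOSC10 over IgG was 0.72 [0.24, 1.26] in doxycycline-treated cells and -0.16 [-2.15, 2.02] in untreated cells, where the value turned positive under total-count scaling. The change between them was 0.88 [-0.92, 2.74]. EHF took 24.8% [22.2, 27.6] of the reads of EHF, KRT8 and KRT18 together in the doxycycline EXOSC10 library and 1.97% [0.796, 4.02] in the untreated EXOSC10 library. With IgG the share was 26.4% [19.4, 34.4] with doxycycline and 3.08% [0.845, 7.69] without it. This share was high in both doxycycline libraries and low in both untreated ones, whichever antibody was used. EHF had been picked for its doxycycline ratio with EXOSC10, so the share there is a description only. ELF3, an epithelial ETS relative named after its values were seen, had a ratio of -0.03 with EXOSC10, from 225 reads with doxycycline and 87.0 without it.

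**Figure D3:**
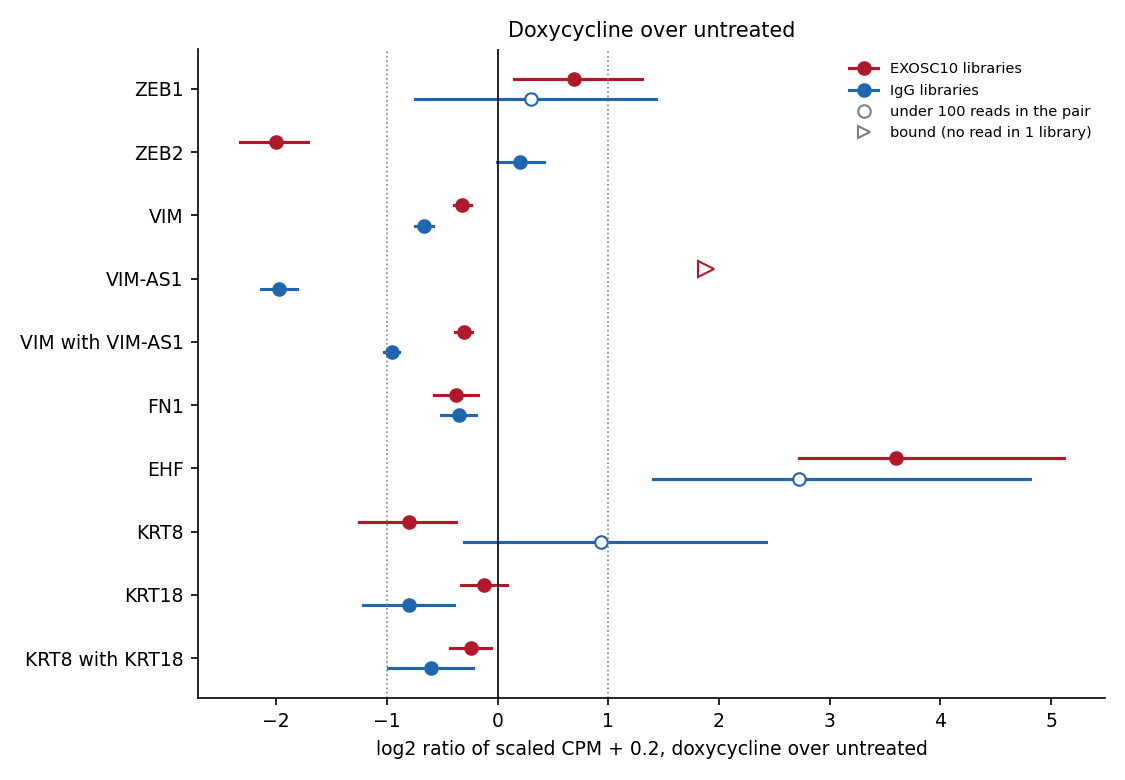
Log2 ratio of doxycycline over untreated for the 8 genes and 2 summed loci, in the EXOSC10 and the IgG libraries. Bars are 95% counting intervals, dotted lines mark 2-fold, open circles have fewer than 100 reads and the triangle is a lower bound. Among genes with at least 100 reads only ZEB2 and EHF passed 2-fold with EXOSC10, and under total-count scaling VIM, FN1, KRT8 and KRT18 moved to the positive side there.

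VIM encodes vimentin, the intermediate filament protein of mesenchymal cells (gene ID 7431, GRCh38 chr10:17228241-17237593). The long non-coding RNA gene VIM-AS1 (gene ID 100507347, chr10:17214239-17229985) runs the other way and shares 1745 bases with it, chr10:17228241-17229985. Whether strand was used in counting is not given in the sources used here, so reads of the shared stretch cannot be told apart and the sum of both genes is given beside each. Of the promoter windows, the VIM window (chr10:17227991-17228290, plus strand) reaches into the shared stretch with its last 50 bases, and 1 of 2 VIM-AS1 windows (chr10:17229936-17230235, minus strand) lies inside the VIM gene. The other VIM-AS1 window (chr10:17226849-17227148) lies outside both VIM and the shared stretch and is not shown. Capitals mark the first 50 transcribed bases of each.
VIM promoter: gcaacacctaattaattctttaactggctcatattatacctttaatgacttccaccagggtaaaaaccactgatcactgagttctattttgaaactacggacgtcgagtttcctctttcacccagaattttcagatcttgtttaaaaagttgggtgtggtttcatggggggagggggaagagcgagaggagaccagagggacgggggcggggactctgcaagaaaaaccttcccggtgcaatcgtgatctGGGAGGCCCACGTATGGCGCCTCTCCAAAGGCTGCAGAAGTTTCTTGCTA
VIM-AS1 promoter: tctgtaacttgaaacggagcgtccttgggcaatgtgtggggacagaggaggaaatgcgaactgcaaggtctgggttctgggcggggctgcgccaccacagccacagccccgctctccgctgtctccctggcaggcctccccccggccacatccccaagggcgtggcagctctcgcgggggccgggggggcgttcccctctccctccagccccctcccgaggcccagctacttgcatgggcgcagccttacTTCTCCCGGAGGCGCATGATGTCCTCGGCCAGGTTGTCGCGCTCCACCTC

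VIM had 4396 reads in the doxycycline EXOSC10 library and 2079 in the untreated EXOSC10 library, or 319 and 397 scaled CPM. The IgG libraries had 685 scaled CPM with doxycycline and 1086 without it. With TMM scaling both EXOSC10 levels lay below both IgG levels. In CPM before that scaling the order differed. VIM then had 798 with doxycycline and 491 without it with EXOSC10, against 309 and 777 with IgG. Doxycycline over untreated was -0.32 [-0.39, -0.24] with EXOSC10, which became 0.70 under total-count scaling, and -0.67 [-0.74, -0.59] with IgG. The larger number of reads makes these intervals narrow. Neither value reached 2-fold under TMM scaling, but the IgG value was -1.33 under total-count scaling.

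VIM-AS1 gave the widest gap between the antibodies. It had 29.1 reads in the doxycycline EXOSC10 library and none in the untreated EXOSC10 library, against 418 with doxycycline and 1279 without it in the IgG libraries. In scaled CPM this was 2.11 and 0 with EXOSC10, and 122 and 480 with IgG, each pair with doxycycline named before untreated. VIM-AS1 was 52.9-fold lower with EXOSC10 than with IgG in doxycycline-treated cells. In untreated cells VIM-AS1 was 838-fold lower with 3 reads set as the floor, and the 95% counting interval allowed a log2 ratio of up to -9.41. Doxycycline over untreated was -1.97 [-2.14, -1.82] with IgG, 3.93-fold lower. With EXOSC10, where fewer than 100 reads were found, it was 3.69-fold higher at the same floor, and the interval reached down to a log2 ratio of 1.49.

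VIM-AS1 took 0.655% [0.439, 0.940] of the reads of VIM and VIM-AS1 together in the doxycycline EXOSC10 library and 0% in the untreated EXOSC10 library, where 3 reads allow a share of up to 0.144%. In the IgG libraries it took 15.1% [13.8, 16.5] with doxycycline and 30.7% [29.3, 32.1] without it. The 4 shares did not overlap. VIM-AS1 had been picked for its EXOSC10 over IgG ratio, so the gap between antibodies is a description only. Summed over both genes, the locus had 321 scaled CPM in the doxycycline EXOSC10 library and 397 in the untreated EXOSC10 library, against 807 and 1566 in the IgG libraries in the same order. The sum had a log2 ratio of -0.31 [-0.38, -0.23] with doxycycline in the EXOSC10 libraries, positive under total-count scaling, and -0.96 [-1.03, -0.89] in the IgG libraries. The summed locus stayed just within 2-fold with IgG, where VIM-AS1 alone did not, but it was -1.62 under total-count scaling.

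**Figure D4:**
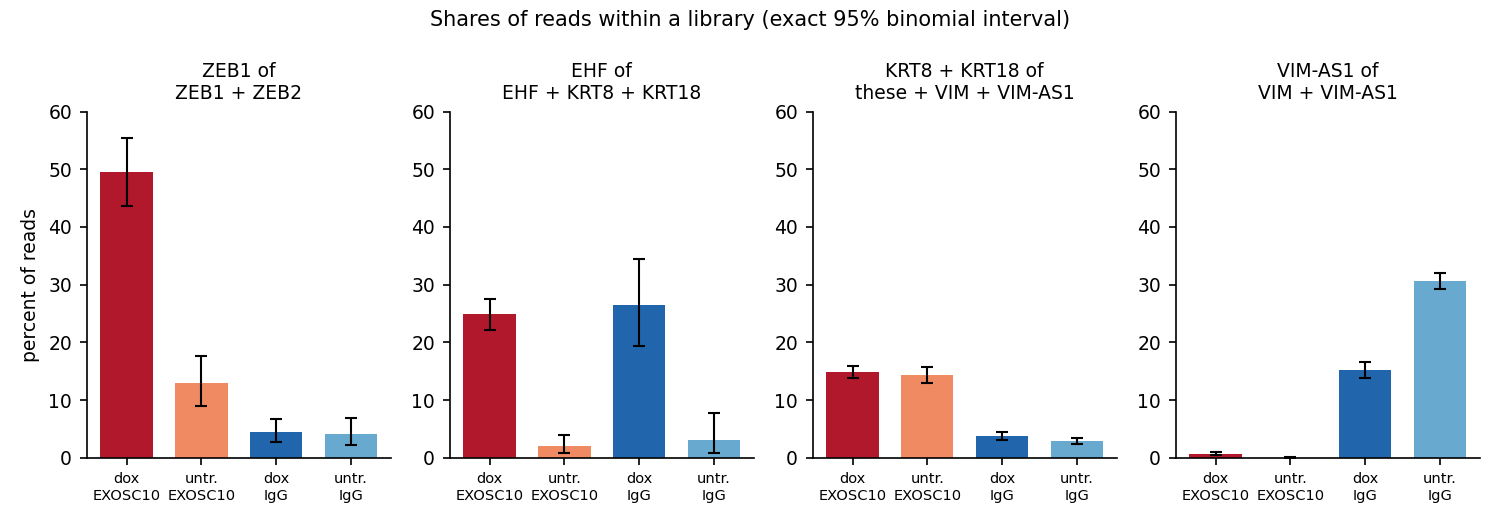
Shares of reads between member genes within each library, in percent, with exact 95% binomial intervals. The panels give ZEB1 among both ZEB genes, EHF among EHF and the keratins, the keratins among keratins and the VIM locus, and VIM-AS1 within the VIM locus. The EHF share followed doxycycline, and the keratin and VIM-AS1 shares differed mainly between antibodies. ZEB2, EHF and VIM-AS1 had been picked by their ratios in these libraries.

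KRT8 and KRT18 encode the paired keratins of simple epithelium and are neighbours on chromosome 12 (gene IDs 3856 and 3875, GRCh38 chr12:52897191-52949860 and chr12:52948855-52952906). Their annotated spans share 1006 bases, and both have many processed pseudogenes, so the reads of either can be uncertain. KRT18 had 661 reads in the doxycycline EXOSC10 library and 273 in the untreated EXOSC10 library, or 48.0 and 52.2 scaled CPM. The IgG libraries had 25.4 scaled CPM with doxycycline and 44.3 without it, from 87.0 and 118 reads. The doxycycline IgG library was the lowest, and with TMM scaling the other 3 lay close together. In CPM before that scaling KRT18 had 120 with doxycycline and 64.5 without it with EXOSC10, against 11.5 and 31.7 with IgG. Doxycycline over untreated was -0.12 [-0.33, 0.09] with EXOSC10, which turned positive under total-count and non-ribosomal scaling, and -0.80 [-1.22, -0.39] with IgG, which became -1.45 under total-count scaling.

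KRT8 had 8.08 scaled CPM in the doxycycline EXOSC10 library and 14.2 in the untreated EXOSC10 library, from 111 and 74.5 reads. The IgG libraries had 5.56 scaled CPM with doxycycline and 2.82 without it, from 19.0 and 7.51 reads. Doxycycline over untreated was -0.80 [-1.25, -0.37] with EXOSC10, positive at 0.20 under total-count scaling, and 0.93 [-0.30, 2.42] with IgG. The 2 entries of KRT8 held 56.1% and 43.9% of its reads in 3 libraries, whereas in the untreated EXOSC10 library entry 2 held 0.0413%. On the leading entry alone KRT8 was at least 2-fold lower with doxycycline in the EXOSC10 libraries, so its call depends on how entries are added.

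Summed, both keratins had 56.0 scaled CPM in the doxycycline EXOSC10 library and 66.4 in the untreated EXOSC10 library, against 31.0 and 47.1 in the IgG libraries in the same order. They took 14.9% [13.9, 15.9] of the reads of keratins and VIM locus in the doxycycline EXOSC10 library and 14.3% [13.0, 15.8] in the untreated EXOSC10 library. With IgG the share was 3.70% [3.04, 4.45] with doxycycline and 2.93% [2.45, 3.48] without it. The intervals overlapped between treatments for either antibody, while the share was higher with EXOSC10 than with IgG in both treatments.

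FN1 encodes fibronectin, a matrix glycoprotein bound by integrins (gene ID 2335, GRCh38 chr2:215360865-215436068). It had 45.8 scaled CPM in the doxycycline EXOSC10 library and 59.4 in the untreated EXOSC10 library, from 631 and 311 reads. The IgG libraries had 199 scaled CPM with doxycycline and 254 without it, from 681 and 676 reads. With TMM scaling both EXOSC10 levels lay below both IgG levels, with little difference by treatment. In CPM before that scaling FN1 had 114 with doxycycline and 73.4 without it with EXOSC10, against 89.9 and 182 with IgG. Doxycycline over untreated was -0.37 [-0.57, -0.17] with EXOSC10, which became 0.64 under total-count scaling, and -0.35 [-0.51, -0.20] with IgG, which became -1.01. FN1 shares 7728 bases with the end of ATIC, a purine synthesis gene, and the sum of both gave -0.29 for the EXOSC10 libraries.

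The 7 entries of FN1 did not move together. Entry 2 had 71.9 reads in the doxycycline EXOSC10 library and 152 in the untreated EXOSC10 library, a log2 ratio of -2.43, and its ratio with IgG was -1.17. Entry 3 had 201 and 20.2 reads in the same libraries, a ratio of 1.86, against 0.48 with IgG. Entry 2 held 48.8% of the gene's reads in the untreated EXOSC10 library, while entry 3 held 31.8% in the doxycycline EXOSC10 library. The table does not name the transcript behind an entry, and fibronectin is known for many splice forms.

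Between antibodies, ZEB2, VIM, VIM-AS1 and FN1 RNAs were lower with EXOSC10 than with IgG in both treatments, although VIM and FN1 turned positive in doxycycline-treated cells under total-count scaling. In doxycycline-treated cells all 8 genes had at least 100 reads and these 4 were at least 2-fold lower, beside 26.6% of 6279 genes lower and 14.0% higher. In untreated cells 5 genes had enough reads and the same 4 names were lower, beside 36.0% of 3618 genes lower and 5.44% higher. VIM-AS1 had been picked for this contrast, and nothing particular to the members is read from the counts. The log2 ratio was -1.10 [-1.18, -1.03] for VIM and -2.11 [-2.28, -1.96] for FN1 in doxycycline-treated cells, against 1.37 and 0.35 under total-count scaling, and -1.45 [-1.53, -1.37] and -2.09 [-2.29, -1.90] for them in untreated cells. VIM fell short of 2-fold in doxycycline-treated cells under upper-quartile scaling at -0.90 and under non-ribosomal scaling at -0.06. In untreated cells VIM had -0.66 under total-count and -0.44 under non-ribosomal scaling, again short of 2-fold. None of the 8 genes was at least 2-fold higher in either treatment under TMM scaling. Under non-ribosomal scaling ZEB1, EHF, KRT8 and KRT18 were in doxycycline-treated cells, beside 51.9% of all genes, and KRT18 was in untreated cells, beside 38.3%. With TMM scaling KRT18 had 0.91 [0.59, 1.26] in doxycycline-treated cells, the nearest to 2-fold there, and 0.23 [-0.08, 0.56] in untreated cells. KRT8 had 0.52 [-0.17, 1.32] in doxycycline-treated cells and 2.26 [1.26, 3.65] in untreated cells, where fewer than 100 reads stood behind it.

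**Figure D5:**
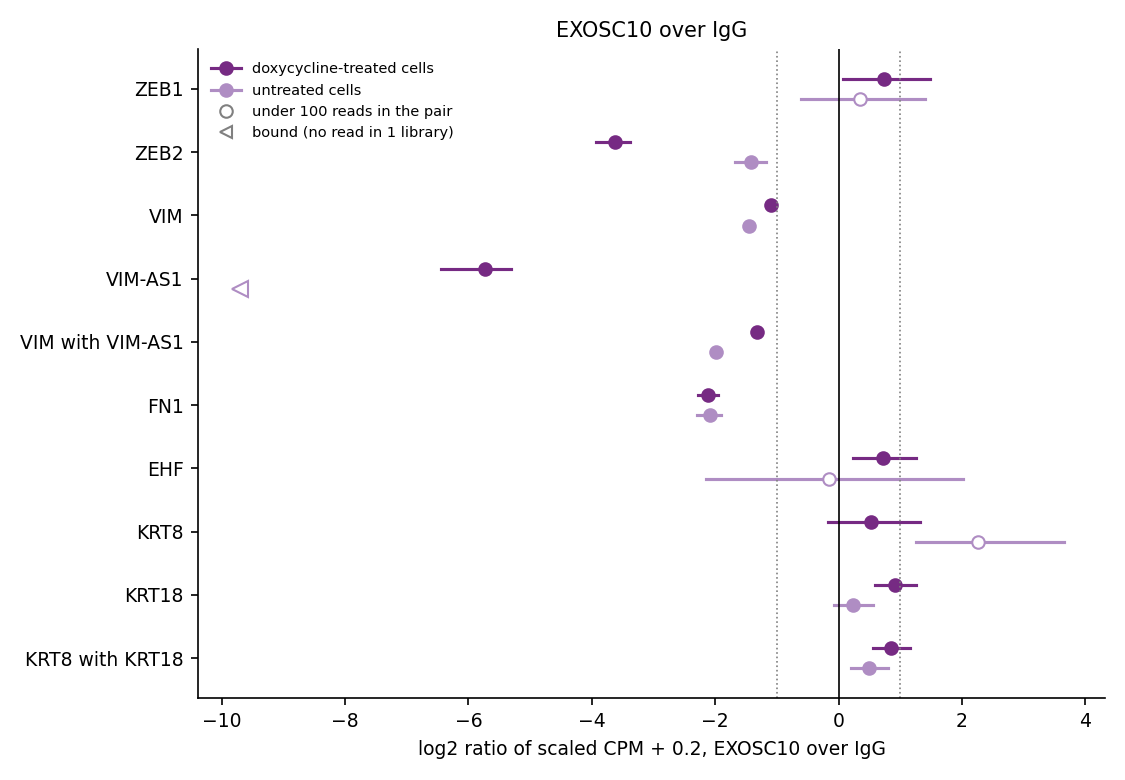
Log2 ratio of EXOSC10 over IgG for the 8 genes and 2 summed loci, in doxycycline-treated and in untreated cells. Bars are 95% counting intervals, dotted lines mark 2-fold, open circles have fewer than 100 reads and the triangle is a bound. ZEB2, VIM, VIM-AS1 and FN1 lay beyond 2-fold on the negative side in both treatments, but VIM and FN1 turned positive in doxycycline-treated cells under total-count scaling.

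In the IgG libraries 5 of the 8 genes had at least 100 reads, and VIM-AS1 was the 1 gene at least 2-fold lower with doxycycline, beside 3.44% of 3026 genes lower and 3.14% higher. For the change of EXOSC10 over IgG with doxycycline, ZEB2 was the 1 gene of 4 with enough reads that was at least 2-fold lower, beside 11.0% of 2945 genes lower and 4.72% higher. The change was 0.35 [0.24, 0.46] for VIM, 0.68 [0.23, 1.13] for KRT18 and -0.02 [-0.27, 0.22] for FN1. Under total-count scaling these 3 had 2.03, 2.34 and 1.65, all at least 2-fold higher, and ZEB2 was no longer called. Under that scaling 77.2% of the 2945 genes were higher and 0.374% lower, so nothing particular to the members is read from it. These comparisons share libraries with those above and are not independent of them.

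Genes around the members were read from 7 lists, the members themselves left out. The list median for doxycycline over untreated with EXOSC10 stands beside 0.04 for all genes with at least 20 reads, and counts of called genes stand beside 6.06% of all genes higher and 3.98% lower. Under total-count scaling the medians of all 7 lists were positive, from 0.63 to 1.08, and no list gene was at least 2-fold lower. Of all genes 47.8% were higher and 0.122% lower under that scaling. Of 15 other transcription factors of the transition 11 had an entry, and 1 of 5 with at least 100 reads was at least 2-fold lower, none higher, with a median of -0.39. That gene was TCF4, a basic helix-loop-helix factor, at -1.01 [-1.31, -0.73] and so near the 2-fold line. TCF3, its relative with the most reads of the list, had -0.35 [-0.56, -0.15]. TWIST1, another such factor, had 243 reads with doxycycline and 140 without it, a ratio of -0.60 [-0.91, -0.29].

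Of 18 epithelial transcription and splicing factors other than EHF 15 had an entry and 7 had enough reads. None reached 2-fold, and the median was 0.03. TFAP2A, an AP-2 factor and the best-read gene of the list, had -0.59 [-0.81, -0.37] with EXOSC10 and -0.40 with IgG. FOXA1, a luminal pioneer factor, had 0.68 [0.36, 1.02] with EXOSC10 and 0.09 with IgG, there from fewer than 100 reads. KLF5, a Krüppel-like factor, had 0.09 with EXOSC10. Among 16 co-regulators of ZEB proteins all had an entry, none of 15 reached 2-fold and the median was -0.37. RBBP7, a histone-binding protein and the best-read gene of the list, had -0.78 [-0.90, -0.65]. CHD4, the remodelling ATPase of the NuRD complex, had -0.94, MTA2, another NuRD subunit, -0.62, and SMARCA4, an ATPase of the SWI/SNF complex, had -0.38. Relative to IgG 11 of the 16 co-regulators were at least 2-fold lower with EXOSC10 in doxycycline-treated cells and 7 of 14 in untreated cells, beside 26.6% and 36.0% of all genes. Their medians there were -1.31 and -0.87. Under non-ribosomal scaling 3 of 16 were lower in doxycycline-treated and 2 of 14 in untreated cells, beside 10.5% and 8.43% of all genes. Under total-count scaling none of 16 and 3 of 14 were, beside 0.541% and 14.5% of all genes.

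Of 25 genes of epithelial junctions 20 had an entry, and 2 of 12 were at least 2-fold higher with doxycycline in the EXOSC10 libraries, none lower, with a median of -0.04. PKP2, a desmosomal plakophilin, had 102 reads with doxycycline and 11.5 without it, a ratio of 1.67 [0.87, 2.78], against -0.44 with IgG from fewer than 100 reads. JUP, plakoglobin, had 150 reads with doxycycline and 20.5 without it, a ratio of 1.43 [0.80, 2.22], against -1.64 with IgG, again from fewer than 100 reads. CDH3, P-cadherin, had -0.15, CLDN4, a tight junction claudin, -0.33, and DSP, desmoplakin, -0.17. The list as a whole thus had a median near that of all genes.

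None of 16 other mesenchymal markers with enough reads and none of 17 other intermediate filament and plakin genes reached 2-fold with doxycycline in the EXOSC10 libraries, and their medians were -0.03 and -0.01. TPM1, a tropomyosin, had 0.01, MSN, the membrane linker moesin, -0.80, and CCN1, a matricellular protein, -0.29. PLEC, which ties filaments to junctions, had -0.25, LMNA, a nuclear lamin, -0.29, and NES, nestin, -0.01. In the IgG libraries 2 of 9 filament and plakin genes with enough reads were at least 2-fold higher, beside 3.14% of all genes. These 2, the basal keratins KRT14 and KRT17, are named for that reason and had 1.42 and 1.72, against -0.80 and -0.55 with EXOSC10. Under total-count scaling 1 of the 9 was higher with IgG, beside 0.397% of all genes. Of 16 fibronectin receptors and their adhesion partners 14 had an entry, and 1 of 11 was higher and 1 lower with EXOSC10, with a median of 0.07. ITGA5, the alpha chain of the main fibronectin receptor, had 140 reads with doxycycline and 17.0 without it, a ratio of 1.59 [0.91, 2.46], against 0.07 with IgG from fewer than 100 reads. SDC4, a syndecan, had -1.02 [-1.42, -0.65], near the 2-fold line. ITGB1, the beta chain that pairs with ITGA5, had -0.06, VCL, vinculin, 0.28, and PTK2, focal adhesion kinase, 0.07.

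The genes whose levels over the 4 libraries lay nearest to a member were found by the distance between log2 levels centred on their mean, among 7519 genes with at least 100 reads. For ZEB2 these were NRP2 at 0.197 and FZD7 at 0.217. For EHF they were CNRIP1 at 0.714 and GGH at 0.962, with 110 and 118 reads in the doxycycline EXOSC10 library and 4.55 and 3 in the untreated EXOSC10 library. ZEB1 had MTHFD2 at 0.0448 and MVD at 0.0905, and FN1 had ARPC2 at 0.0337 and CSNK2A3 at 0.0552. VIM had POLD3 at 0.0621 and NDUFAB1 at 0.0671, KRT18 had CDC37 at 0.0578 and AP3D1 at 0.0601, and KRT8 had MRPL58 at 0.120 and TRIM4 at 0.195. VIM-AS1 had no close neighbour, and its nearest genes were NUDT4B at 4.41 and POTEJ at 5.00. Among the members themselves VIM and FN1 were 0.857 apart, ZEB1 and KRT18 0.969, and ZEB1 and ZEB2 3.60, so the 8 genes did not share 1 pattern. With 4 points per gene these distances are a description.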

How the data were processed

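The authors deposited a table of reads per 1000000 (CPM) for 4 libraries, 1 per group, read as CPM from its values because each column had that sum apart from 0.0001 on every entry. Per the submitters' processing notes, STAR, Partek and genome build hg38 were used, with no versions. How reads were counted, and whether by strand, is not given in the sources used here. Per the labels' protocols, a SMARTer mRNA-seq kit turned total RNA into libraries.

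Entries of a symbol (24015 entries in all) were added after subtracting that constant. The highest library of every entry held 10.0 reads or more. Reads were estimated as CPM over the value of 1 read, which was 0.181, 0.236, 0.132 and 0.269 CPM in the doxycycline EXOSC10, untreated EXOSC10, doxycycline IgG and untreated IgG libraries. From 67.1% to 70.6% of genes came within 0.05 of a whole read, so no test with a count model was run. The intervals still treat the estimated reads, fractions included, as counts. TMM factors, trimming 30% of ratios and 5% of levels at each end, were 2.50, 1.24, 0.452 and 0.715 in that order. Ratios carry a pseudocount of 0.2 CPM, which understates ratios of low genes, and exact Clopper-Pearson 95% intervals. The change of EXOSC10 over IgG carries a normal-approximation 95% interval instead. Reads carry no molecular identifiers, so intervals and the floor of 3 reads cover counting error only. The code was tested on simulated data. Python 3.11.15 with numpy 2.4.6, pandas 2.3.3 and scipy 1.17.1 was used.

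Members, lists and rules were chosen with earlier results of these data known. Named besides the members were overlapping genes with an entry, list genes called in the EXOSC10 libraries with doxycycline (otherwise those with most reads), the best-read list genes for EXOSC10 over IgG, and the 2 nearest genes to each member. Coordinates and promoter windows are from RefSeq, GRCh38.p14, where 12545 symbols matched a current and 206 an older symbol. The 10 alternatives covered scaling, minimum reads, pseudocount, entries and overlapping loci.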

Additional observations from a re-analysis of the deposited data

How the results depend on the processing

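No paired analysis was possible because each group had 1 library, which also allowed no library to be left out. The call counts below are of the 8 genes, at least 2-fold with at least 100 reads unless said otherwise. Scaling by total reads gave 2 genes higher (ZEB1, EHF) and 0 lower with doxycycline in the EXOSC10 libraries, 4 lower (VIM, VIM-AS1, KRT18, FN1) in the IgG libraries, 5 higher (ZEB1, EHF, VIM, KRT8, KRT18) and 2 lower (ZEB2, VIM-AS1) for EXOSC10 over IgG in doxycycline-treated cells, and 1 higher (KRT18) and 2 lower (VIM-AS1, FN1) in untreated cells. In doxycycline-treated cells VIM turned to 1.37 and FN1 to 0.35 on the log2 scale, and the change with doxycycline had 3 higher (VIM, KRT18, FN1) and 0 lower. Over all genes that scaling called 3150 higher and 8 lower with doxycycline in the EXOSC10 libraries, against 399 and 262 with TMM. It called 26.5% of all genes lower in the IgG libraries and 77.2% higher for the change. For EXOSC10 over IgG it called 80.9% higher and 0.541% lower in doxycycline-treated cells, and 31.3% and 14.5% in untreated cells. For EXOSC10 over IgG, non-ribosomal scaling gave 4 higher (ZEB1, EHF, KRT8, KRT18) in doxycycline-treated cells, beside 51.9% of all genes. It gave 1 higher (KRT18) and 2 lower (VIM-AS1, FN1) in untreated cells, beside 38.3% and 8.43% of all genes. Upper-quartile scaling gave 1 higher (KRT18) in doxycycline-treated cells, beside 20.1% of all genes. A minimum of 20 reads gave 2 higher (EHF, VIM-AS1) with doxycycline in the EXOSC10 libraries, 1 higher (EHF) in the IgG libraries, 1 higher (KRT8) for EXOSC10 over IgG in untreated cells, and 1 higher (VIM-AS1) and 2 lower (ZEB2, KRT8) for the change. A minimum of 500 reads left 0 higher and 0 lower with doxycycline in the EXOSC10 libraries and 0 lower for the change, since fewer genes were tested. The leading entry alone gave 2 lower (ZEB2, KRT8) with doxycycline in the EXOSC10 libraries, and summing overlapping genes left 0 lower in the IgG libraries. No shares over all genes are given for the other read minimums, the leading entry or the summed loci. Nothing particular to the members is therefore read from those counts. The causes were not tested. Median-of-ratios factors and other pseudocounts changed none of these counts by over 1.5 times. Depth limits ZEB1, EHF and KRT8 in the IgG pair and VIM-AS1 in the EXOSC10 pair, which held fewer than 100 reads each. The scaling of lists and summed loci was tried after seeing the data.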
